A study of Danio rerio with 15 samples.

Results

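All larvae exposed to a selective serotonin reuptake inhibitor (SSRI) were compared with unexposed larvae, by setting the equal-weight mean of the 4 exposed groups (12 arrays) against the control group (3 arrays). These 15 arrays are all the samples of the series, so the members were the groups as labelled, and 15502 probe sets were tested. Zebrafish larvae were placed at 72 hours after fertilization in fish water that held fluoxetine at 25 or 250 µg/L, sertraline at 25 or 250 µg/L, or no drug (control), and stayed there for 96 h. Every group, the control included, was unfed and lived on its yolk, and each array measured RNA of the pooled whole larvae of 1 beaker of about 100 fish, with 3 beakers per group. All cell types of the larva were therefore read together, and larvae of 1 beaker were not measured separately. The further question was which stress genes moved in 1 direction in all 4 exposed groups. Stress genes were the 299 measured genes of 9 lists: glucocorticoid-responsive genes, the hormone axis itself, the unfolded protein and integrated stress response, heat shock, oxidative stress and metals, immediate early genes, hypoxia, DNA damage, and inflammation.

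Fluoxetine and sertraline block the transporter that returns serotonin from the synapse into nerve cells. In fish the stress response runs through the hypothalamus, the pituitary and the interrenal gland, which releases cortisol; cortisol binds the glucocorticoid receptor, and the receptor switches on genes such as fkbp5 and klf9 and, through them, damps its own signal. Other stress responses have their own sensors and targets: heat shock factor drives chaperones, Atf4 drives amino acid supply, Nrf2 drives antioxidant enzymes, and neuronal activity or growth factors drive immediate early genes.

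The deposited values are on a log2 scale, and differences are on that scale and ± gives their standard error (SE) from the fit. A probe set was said to have passed, risen or fallen where the adjusted p of limma (Benjamini-Hochberg over all probe sets) was under 0.05. The adjustment was made within each comparison, so the same difference and SE can pass in 1 group and not in another. Passing in some groups only is therefore not a test of a difference between groups. Unless a group, a single drug or another fit is named, these words refer to the mean of the 4 exposed groups. Array medians lay between 4.57 and 4.65. Arrays of the same group correlated at a mean of 0.986 to 0.989 across probe sets at 25 µg/L fluoxetine and at 0.9947 to 0.9967 in the other groups. The 3' minus 5' difference of the GAPDH control probe sets, a sign of RNA quality, was 1.16 to 3.16 in exposed arrays and 1.55 to 1.73 in control arrays (difference of the means 0.285, exact two-sided permutation test, p = 0.321, a test that cannot go below 0.0044 with 12 and 3 arrays). By group it was 1.53 to 2.36 and 1.16 to 1.74 for fluoxetine (25, then 250 µg/L), and 1.95 to 2.17 and 1.77 to 3.16 for sertraline. All sertraline arrays were thus above all control arrays in the GAPDH measure. The test pools the 4 exposed groups, so it cannot show whether this measure moved with 1 drug. The same difference of the acta1 control probe sets was 6.51 to 9.46 in exposed and 6.86 to 7.54 in control arrays (exact two-sided permutation test, p = 0.479). For acta1 the sertraline arrays ran from 7.09 to 9.46 and overlapped the control range. Precision was limited by how many arrays there were: for the mean difference, 95% intervals reached a median of 0.188 to either side. The 4 groups are all compared with the same 3 control arrays, so their differences from control share the error of those arrays.

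In the mean of the exposed groups, 107 of 15502 probe sets passed (0.69%), of which 23 were higher (0.148%) and 84 were lower (0.542%). The largest falls among genes without overlap between exposed and control arrays were in fkbp5, which encodes a co-chaperone of the glucocorticoid receptor, in pik3r3a, a regulatory subunit of phosphoinositide 3-kinase, in the clock repressor gene bhlhe41 and in pfkfb4b, which encodes an enzyme that sets the level of the glycolysis activator fructose 2,6-bisphosphate. The largest rise under the same rule was in nr0b2a, the gene of a nuclear receptor that represses bile acid synthesis. For bhlhe41 the margin was narrow, with 9.112 in the highest exposed array, at 25 µg/L sertraline, and 9.115 in the lowest control array. bhlhe41 did not pass at 25 or 250 µg/L sertraline (adjusted p = 0.999 and 0.853). A difference of 2-fold or more was found in 14 of the probe sets that passed (0.0903% of all). In bulk RNA of whole larvae, a lower value can come from fewer cells of a type or from less RNA per cell, and these cannot be told apart.

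For fkbp5 the control arrays read 10.27, 10.18 and 10.28, and the 12 exposed arrays had a lowest value of 4.825, a median of 8.49 and a highest value of 9.57. All exposed arrays were below all control arrays, and the arrays at 25 µg/L fluoxetine (5.37, 4.825 and 5.56) stood apart from every other exposed array. The mean of the exposed groups was lower by 5.08-fold, with a difference of -2.34 ± 0.20 (adjusted p = 0.000209). By group the difference was -4.99 at 25 µg/L fluoxetine, -0.995 at 250 µg/L fluoxetine, -2.19 at 25 µg/L sertraline and -1.20 at 250 µg/L sertraline, each ± 0.26. It passed at 25 µg/L of each drug (adjusted p = 1.05e-06 and 0.0107) and missed the threshold at 250 µg/L of each (0.113 and 0.25), and the 4 exposed groups differed among themselves in the F test, which does not use the control mean (adjusted p = 1.15e-05). Without the group at 25 µg/L fluoxetine the mean difference of fkbp5 was -1.46 and still passed (adjusted p = 0.0235). It passed in all 15 fits that left out 1 array.

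**Figure D1:**
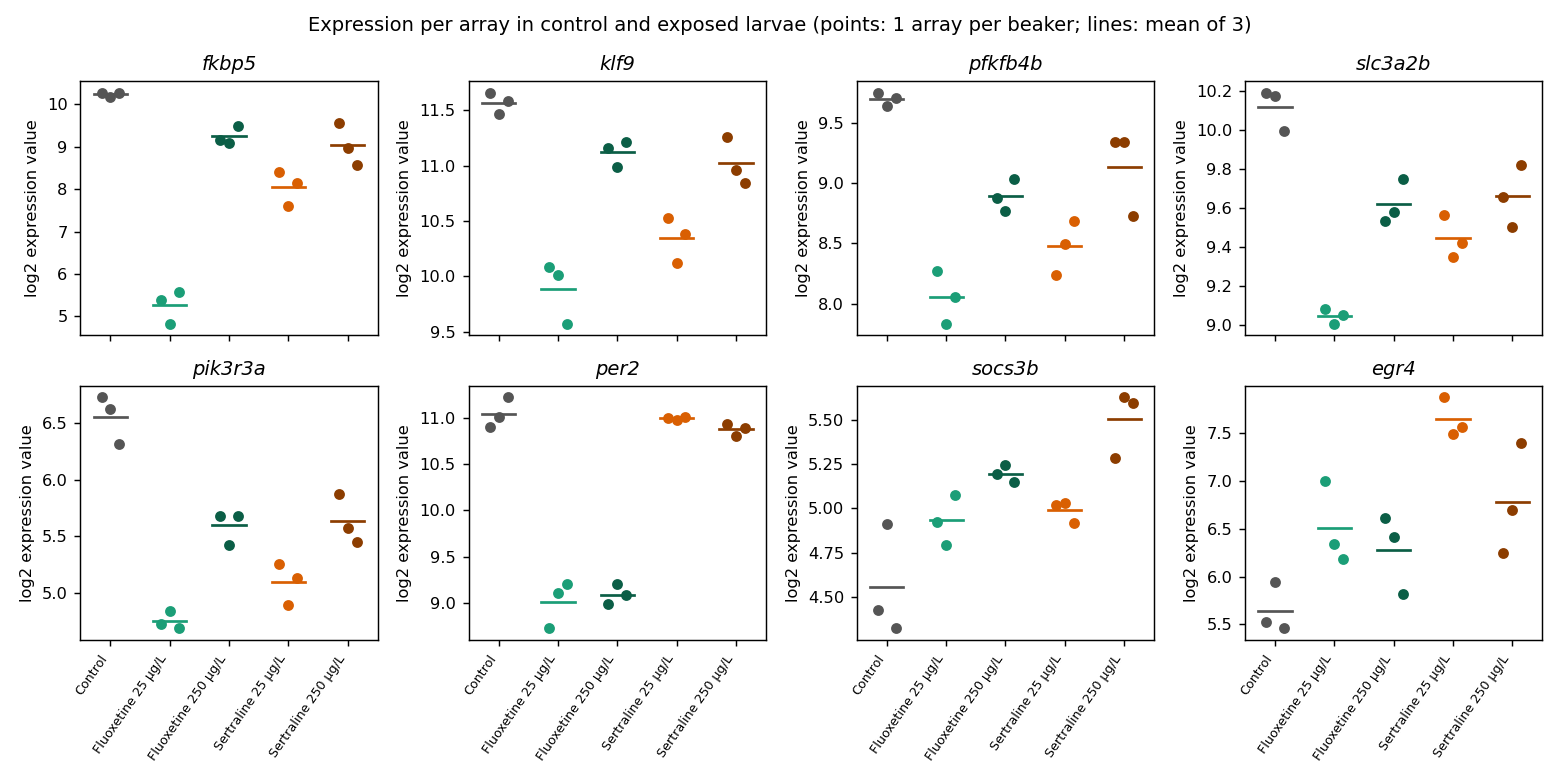
Log2 expression value (vertical axes) of 8 genes in each array, by group; points are arrays of 1 beaker each and lines are the mean of 3. For fkbp5, klf9, pfkfb4b, slc3a2b and pik3r3a all 12 exposed arrays lie below the 3 control arrays, per2 is low in the fluoxetine groups, and socs3b and egr4 are higher in exposed groups with arrays that overlap the control range.

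A gene was taken to move the same way where its difference from control had 1 sign in all 4 groups, whatever its size. By this rule 83 of the 299 stress genes (27.8%) moved the same way, 45 lower (15.1%) and 38 higher (12.7%). Over all probe sets the shares were 25.9%, 15.2% and 10.7%, so the share among stress genes was near that of the array as a whole, and the shared control arrays enter both. Most of these differences were small: 12 of the 83 genes reached 0.25 in every group, a size chosen after the values were seen. In the mean of the exposed groups 15 stress genes passed, 10 lower (3.34%) and 5 higher (1.67%), against 0.542% and 0.148% of all probe sets. These shares of all probe sets are also the background for the falls and rises counted in each list below. The stress lists were chosen with earlier results of these data known. The shares also differ in unit: each stress gene is counted by its brightest probe set, and the background by every probe set, dim ones and those without a symbol included. Of the 15 genes, 11 had 1 sign in all 4 groups, as had 90 of the 107 probe sets that passed. Passing in the mean itself favours 1 sign.

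No stress gene passed in each of the 4 groups (0 genes in limma, and 0% of all probe sets), and the group at 250 µg/L sertraline had 0 calls over all probe sets. With 0 calls in that group no gene could pass in all 4, so that group alone fixed this count. At an unadjusted p under 0.05 in each group and in 1 direction there were 4 lower stress genes, fkbp5, klf9, pfkfb4b and slc3a2b, and 2 higher, ccn2a and socs3b; over all probe sets the same rule held for 0.432% lower and 0.148% higher. The 4 lower genes were also the stress genes with all 12 exposed arrays below all 3 control arrays (71 probe sets, 0.458%), and 0 stress genes had all exposed arrays above (25 probe sets, 0.161%).

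klf9 encodes a zinc finger transcription factor that the glucocorticoid receptor induces. Its control arrays read 11.66, 11.47 and 11.58, and the exposed arrays ran from 9.57 through a median of 10.68 to 11.26, with no overlap. It fell by 0.98 ± 0.12 in the mean (adjusted p = 0.00196), and by group the differences were -1.68 and -0.45 for fluoxetine (25, then 250 µg/L) and -1.23 and -0.55 for sertraline. As with fkbp5, the call was made at 25 µg/L of each drug (adjusted p = 3.9e-05 and 0.0107) and not at 250 µg/L (0.239 and 0.391), and the exposed groups differed (adjusted p = 0.00139).

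The control arrays of pfkfb4b, a member of the hypoxia list, read 9.75, 9.64 and 9.71, and the exposed arrays ran from 7.83 through 8.71 to 9.34. The ranges did not overlap. It fell by 1.06 ± 0.13 in the mean (adjusted p = 0.00229), with differences of -1.65, -0.81, -1.23 and -0.57 in the same order of groups, of which the last did not pass (adjusted p = 0.486). slc3a2b encodes the heavy chain of several amino acid transporters and belongs to the integrated stress response list. Its control arrays read 10.19, 10.17 and 9.995 and the exposed arrays 9.01 to 9.82 with a median of 9.52, again without overlap. It fell by 0.68 ± 0.07 (adjusted p = 0.000845), with -1.07, -0.50, -0.68 and -0.46 by group, and 250 µg/L sertraline did not pass (adjusted p = 0.25). The calls of klf9, pfkfb4b and slc3a2b in the mean held in all 15 fits without 1 array and in all 4 fits without 1 exposed group (adjusted p 0.000637 to 0.0303), and for each the exposed groups differed (adjusted p = 0.00139, 0.0129 and 0.00809).

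**Figure D2:**
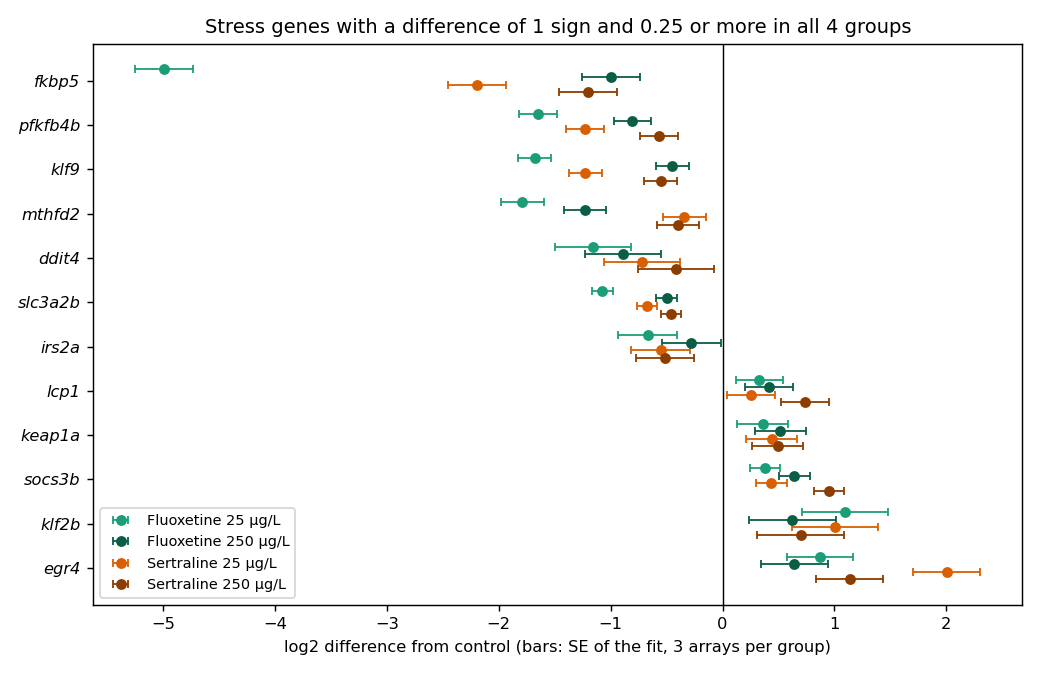
Log2 difference from control (horizontal axis) of the 12 stress genes with 1 sign and a size of 0.25 or more in each exposed group; points are the 4 groups and bars are the SE of the fit with 3 arrays per group. The 7 lower genes run down to -4.99 for fkbp5 at 25 µg/L fluoxetine, and the 5 higher genes up to 2.01 for egr4 at 25 µg/L sertraline.

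Of the 12 genes that reached 0.25 in every group, 7 were lower and 5 were higher; over all probe sets this held for 0.768% and 0.523%. Besides the 4 genes above, the lower ones were mthfd2, ddit4 and irs2a. mthfd2, which encodes a mitochondrial enzyme of folate metabolism, fell in the mean (-0.94 ± 0.15, adjusted p = 0.011), but not without control replicate 3 (0.101), the group at 25 µg/L fluoxetine (0.134) or the group at 250 µg/L fluoxetine (0.0803). For ddit4, whose product inhibits the growth kinase complex TORC1, the difference was -0.79 ± 0.27 (adjusted p = 0.37), and for the insulin receptor substrate gene irs2a it was -0.50 ± 0.21 (0.544), so neither passed.

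The 5 higher genes were egr4, klf2b, socs3b, keap1a and lcp1. egr4 encodes a zinc finger transcription factor of the immediate early class. Its control arrays read 5.52, 5.94 and 5.46 and its exposed arrays 5.81 to 7.88 with a median of 6.66, so that the ranges overlapped. It rose by 1.16 ± 0.24 (adjusted p = 0.0477), with 0.87, 0.64, 2.01 and 1.14 by group, and passed by group only at 25 µg/L sertraline (0.0403). The call of egr4 in the mean ended in 11 of the 15 fits without 1 array (adjusted p 0.053 to 0.286), and was kept without fluoxetine 25 replicate 3, fluoxetine 250 replicate 3, sertraline 250 replicate 1 or sertraline 250 replicate 3. Of the groups, it ended without 25 µg/L fluoxetine (0.0707), 250 µg/L fluoxetine (0.0515) or 25 µg/L sertraline (0.248). socs3b encodes a suppressor of cytokine signalling. Its control arrays read 4.43, 4.91 and 4.32, its exposed arrays ran from 4.80 through 5.11 to 5.63, and the ranges overlapped through control replicate 2. It rose by 0.60 ± 0.11 (adjusted p = 0.0262), with 0.38, 0.64, 0.44 and 0.95 by group. The call ended without control replicate 1 (0.137), control replicate 3 (0.194), fluoxetine 250 replicate 2 (0.0508) or sertraline 25 replicate 2 (0.0539), and without the group at 250 µg/L fluoxetine (0.112) or 250 µg/L sertraline (0.0943).

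Neither klf2b, the gene of a zinc finger factor that responds to blood flow in endothelium (0.86 ± 0.31, adjusted p = 0.43), nor keap1a, which encodes the protein that holds Nrf2 in check (0.45 ± 0.18, 0.536), nor lcp1, the gene of the actin bundler of leukocytes (0.43 ± 0.17, 0.512), passed. At the size of 0.25 the members just inside were lcp1 (smallest group difference 0.252) and irs2a (0.278), and those just outside were fosab (0.249), the Fos transcription factor gene, ccn2a (0.240) and ucp2 (0.228), the gene of a mitochondrial uncoupling protein.

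Among the 31 measured glucocorticoid-responsive genes, 4 fell (fkbp5, klf9, cry2 and nfkbiab), 1 rose (socs3b) and 26 did not pass; their median difference was -0.10, against -0.0038 over all probe sets. The median by group was -0.32 at 25 µg/L fluoxetine, 0.04 at 250 µg/L fluoxetine, -0.15 at 25 µg/L sertraline and -0.11 at 250 µg/L sertraline. In 8 of the 31 the difference was lower in all 4 groups and in 3 it was higher, together 35.5% against 25.9% of all probe sets. Over the 9 stress lists this share ran from 13.3% (stress axis) to 37.8% (immediate early). Over the other lists it ran from 12.8% (keratinocyte and ionocyte) to 72.2% (exocrine pancreas), so high shares were not particular to stress lists. tsc22d3, known in mammals as the glucocorticoid-induced leucine zipper gene GILZ, had -0.38 ± 0.12 (adjusted p = 0.277), with -0.63, -0.20, -0.45 and -0.22 by group. Of the groups, tsc22d3 passed at 25 µg/L fluoxetine only (0.0392). The forkhead genes foxo3b and foxo3a had -0.22 ± 0.08 (0.445) and -0.20 ± 0.13 (0.821). The 3 genes higher in all 4 groups were socs3b, nfkbiaa and gadd45ba, of which gadd45ba had 0.36 ± 0.16 (0.613). nfkbiab and nfkbiaa encode inhibitors of NF-kappaB and had opposite signs: nfkbiab fell by 0.44 ± 0.09 (adjusted p = 0.0453), with -1.25, 0.0007, -0.46 and -0.04 by group, while nfkbiaa had 0.38 ± 0.11 (0.2). The call of nfkbiab ended in 12 of the 15 fits without 1 array (adjusted p 0.0566 to 0.272) and was kept without fluoxetine 25 replicate 2, fluoxetine 25 replicate 3 or sertraline 25 replicate 1. It also ended without the group at 25 µg/L fluoxetine (0.64) or 25 µg/L sertraline (0.0527).

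The stress axis list held 15 measured genes of hormone release, steroid synthesis and receptors, and 0 passed in the mean of the exposed groups in limma (1 higher and 1 lower at an unadjusted p under 0.05, where 7.95% of all probe sets lay, 3.08% higher and 4.87% lower). The glucocorticoid receptor gene nr3c1 read 8.47 to 8.82 in control and 8.46 to 9.20 in exposed arrays, so that the ranges overlapped. Its difference was 0.19 ± 0.07 (adjusted p = 0.526), with 0.46, 0.23, 0.12 and -0.06 by group, and its other probe sets had 0.27 and 0.12 and did not pass. By group the brightest probe set of nr3c1 passed only at 25 µg/L fluoxetine (adjusted p = 0.0204). The other probe sets had 0.06 and -0.07 in that group, and 0.81 and 0.37 at 250 µg/L fluoxetine. Their control means were lower, at 3.48 and 5.47. hsd11b2, whose enzyme inactivates cortisol, had -0.48 ± 0.15 (0.274) with -0.45, -0.05, -0.92 and -0.49 by group, and the vasopressin gene avp had -0.14 ± 0.07 (0.662). The mean of the list lay between 3.52 and 3.83 in all arrays, while nr3c1 and hsd11b2 had control means of 8.66 and 6.38.

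Of the 46 genes of the unfolded protein and integrated stress response, 2 fell (mthfd2 and slc3a2b) and 44 did not pass, with a median of -0.03. The Atf4 factor genes atf4b and atf4a had -0.21 ± 0.09 and -0.09 ± 0.11, both lower in all 4 groups and neither passed (adjusted p = 0.564 and 1.00). Members that act in the endoplasmic reticulum went both ways with small differences: herpud1 (0.22 ± 0.13), the disulphide isomerase genes pdia3 (0.20 ± 0.09) and pdia4 (0.15 ± 0.06), edem1 (0.19 ± 0.11) and hyou1 (0.14 ± 0.15) were higher in all 4 groups, and dnajb11 (-0.15 ± 0.07), sel1l (-0.13 ± 0.06), syvn1 (-0.09 ± 0.08) and dnajc3a (-0.04 ± 0.06) were lower. None of these 9 passed.

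In the heat shock list 1 of 39 genes fell in the mean and 38 did not pass, among them the gene with the highest difference (0.96). At 25 µg/L fluoxetine 2 of the 39 rose and 5 fell, against 0.864% and 1.66% of all probe sets. At 250 µg/L fluoxetine 2 rose and 4 fell, against 0.458% and 0.697%. In 7 of the 39 the exposed groups differed among themselves, against 2.65% of all probe sets. The small heat shock protein gene hspb6 had control values of 5.95 to 6.22 and exposed values of 3.86 to 6.12 with a median of 5.47. Its ranges overlapped. The fall of 0.90 ± 0.13 (adjusted p = 0.00586) was made of -1.94 and -1.11 at the fluoxetine concentrations and -0.48 and -0.07 at those of sertraline, and it ended without control replicate 2 (0.0569) or without the group at 25 µg/L fluoxetine (0.12). The related genes hspb1 and hspb8 had 0.27 ± 0.12 and 0.19 ± 0.12, higher in all 4 groups and not passed. In the heat shock list 3 genes were higher and 6 lower in all 4 groups, together 23.1% against 25.9% of all probe sets. Among the lower ones hspa4l had -0.30 ± 0.08 in the mean (adjusted p = 0.167). By group it had -0.51, -0.55, -0.02 and -0.13, and passed at both fluoxetine concentrations (0.0175 and 0.0205). Of the 32 oxidative stress and metal genes 0 passed (7 higher and 3 lower at an unadjusted p under 0.05), with a median of 0.08. The Nrf2 target genes nqo1 (0.48 ± 0.26), gsr (0.33 ± 0.15), prdx1 (0.20 ± 0.07) and gclm (0.11 ± 0.05) were higher in all 4 groups without passing. Lower in all 4 groups, without passing in the mean, were ucp2 (-0.57 ± 0.17, adjusted p = 0.237) and pgd (-0.27 ± 0.10, 0.445). By group, ucp2 and pgd passed at 25 µg/L fluoxetine only (0.0141 and 0.0483). Of this list 7 genes were higher and 2 lower in all 4 groups, 28.1% together against 25.9% of all probe sets.

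The immediate early list had 2 rises (egr4 and ccn2a), 1 fall (fosl2) and 42 genes that did not pass of 45. Its members went both ways in all 4 groups, with 8 higher and 9 lower, together 37.8% against 25.9% of all probe sets. Higher and not passed were fosab (0.81 ± 0.31) and ier2a (0.74 ± 0.27), with their largest differences at 25 µg/L sertraline (1.25 and 1.24). Lower and not passed in the mean was the orphan nuclear receptor gene nr4a1 (-1.03 ± 0.22, adjusted p = 0.0573), with -2.41 at 25 µg/L fluoxetine and -0.18 at 250 µg/L sertraline. By group, nr4a1 passed at 25 µg/L fluoxetine only (0.000311). ccn2a, which encodes a connective tissue growth factor, rose by 0.47 ± 0.08 (adjusted p = 0.0268), with 0.62, 0.54, 0.47 and 0.24 by group. Its call ended without control replicate 1 (0.0865), control replicate 3 (0.13), sertraline 25 replicate 2 (0.0539) or sertraline 25 replicate 3 (0.0501), and without any exposed group other than 250 µg/L sertraline (0.149, 0.111 and 0.0666). The Fos-related gene fosl2 fell by 0.67 ± 0.13 (0.0453), and this call ended in 12 of the 15 fits (adjusted p 0.0514 to 0.283), being kept without fluoxetine 25 replicate 3, fluoxetine 250 replicate 1 or fluoxetine 250 replicate 3. It also ended without the group at 25 µg/L of either drug (0.442 for fluoxetine and 0.0995 for sertraline). The other probe sets of fosl2 had -0.38 ± 0.16 (0.584) and -0.27 ± 0.12 (0.631) and did not pass.

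In the hypoxia list pfkfb4b and higd1a, the gene of a mitochondrial inner membrane protein, fell (-0.85 ± 0.09 for higd1a, adjusted p = 0.000764), ndrg1a and ndrg1b rose, and 32 of 36 did not pass. The other probe set of higd1a had -0.93 ± 0.23 and did not pass (0.122). The paralogous genes ndrg1a (0.31 ± 0.06, adjusted p = 0.0412) and ndrg1b (0.56 ± 0.08, 0.00645) had 0.74 and 0.52, and 1.42 and 1.25, in the fluoxetine groups (25, then 250 µg/L), against -0.06 and 0.05, and -0.15 and -0.30, in the sertraline groups. For both genes the exposed groups differed among themselves (adjusted p = 0.000221 and 1.54e-06). Without the group at 25 µg/L fluoxetine both calls ended (0.507 for ndrg1a and 0.276 for ndrg1b), as they did without that at 250 µg/L (0.222 and 0.216). The call of ndrg1b also ended without control replicate 2 (0.0512) or 3 (0.0538), and that of ndrg1a in 9 of 15 fits (0.0508 to 0.17), being kept without fluoxetine 25 replicate 2 or 3, fluoxetine 250 replicate 3, sertraline 25 replicate 1, or sertraline 250 replicate 1 or 2. Of 34 DNA damage genes 0 passed in the mean (2 higher and 5 lower at an unadjusted p under 0.05), with sesn3 at 0.31 ± 0.08 and the kinase gene plk3 at -0.25 ± 0.06. At 25 µg/L fluoxetine 1 of the 34 rose and 5 fell, against 0.864% and 1.66% of all probe sets. Among them were sesn3 (adjusted p = 0.00741) and plk3 (0.00299).

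Of the 35 inflammatory and innate immune genes, socs3b rose, nfkbiab fell and 33 did not pass, and the median was 0.11. In 11 of them all 4 differences were higher and in 2 they were lower. Together this was 37.1% of the list, against 25.9% of all probe sets (10.7% higher and 15.2% lower). The higher ones included markers of leukocytes and genes of cytokine signalling: coro1a (0.39 ± 0.14), lcp1 (0.43 ± 0.17), the suppressor gene socs1a (0.47 ± 0.16), irf1b (0.36 ± 0.18) and cxcl12a (0.28 ± 0.10), with adjusted p between 0.395 and 0.681 in the mean. By group, cxcl12a passed at 25 µg/L fluoxetine (0.0256) and socs1a at 250 µg/L fluoxetine (0.0461). The 2 lower ones were also leukocyte genes, the neutrophil genes ncf1 (-0.19 ± 0.17, adjusted p = 0.981) and mpx (-0.13 ± 0.07, 0.753). Some of the named genes were dim, with control means of 3.40 for lcp1, 3.02 for irf1b, 3.555 for ncf1 and 2.91 for mpx. A control mean under 3.90 was found for 40% of probe sets. The control arrays of ncf1 read 3.18, 3.305 and 4.18, of which 1 stood above the others. The mean of the list was 4.23 to 4.32 in control arrays and 4.18 to 4.64 in exposed arrays, with 9 of 12 exposed arrays above and 2 below the control range.

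**Figure D3:**
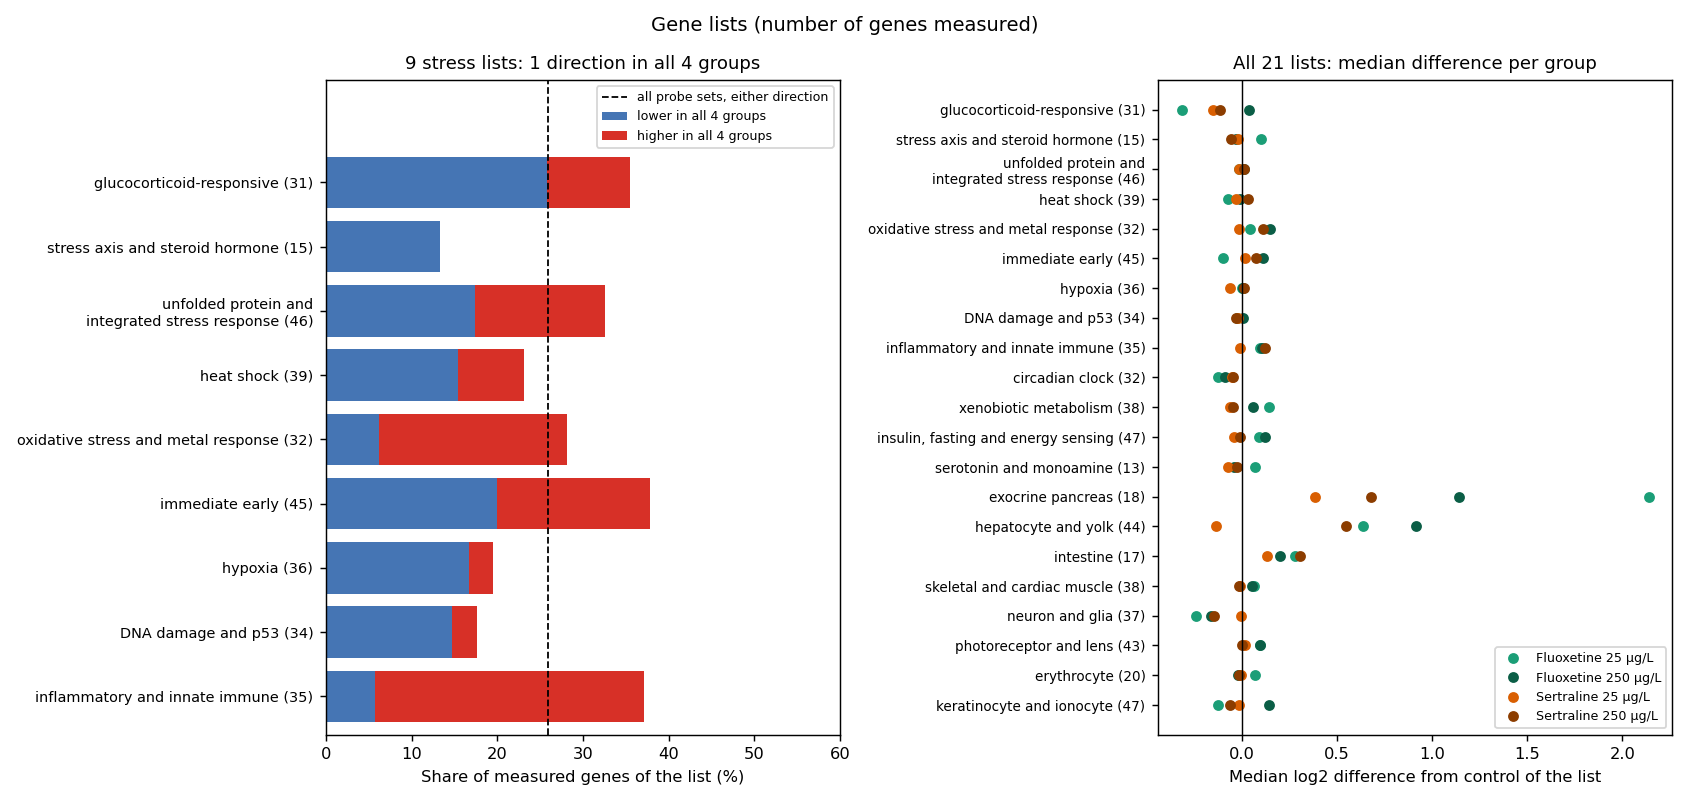
Left, the share of measured genes (%) of each of the 9 stress lists with a difference from control of 1 sign in all 4 exposed groups, lower in blue and higher in red, with the 25.9% of all probe sets as a dashed line; right, the median log2 difference from control of all 21 lists in each group. Shares of the stress lists lie on both sides of the dashed line, and medians of the stress lists lie between -0.32 and 0.15 while those of the exocrine pancreas list reach 2.14.

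The clock genes gave the largest number of passes among the 21 lists, which differ in size and were chosen with earlier results of these data known. Of 32 measured members 6 fell (bhlhe41, per2, ciarta, nfil3-6, cry2 and cry1b), 1 rose (rorcb) and 25 did not pass. Over all probe sets 0.542% fell and 0.148% rose. The period gene per2, part of the repressor arm of the clock, read 10.91, 11.02 and 11.23 in control and 8.72 to 11.02 in exposed arrays with a median of 10.01. All 6 fluoxetine arrays were at or below 9.20 and all sertraline arrays at or above 10.81, which overlaps the control. The difference of per2 was -1.06 ± 0.09 in the mean (adjusted p = 0.000209), -2.05 and -1.97 in the fluoxetine groups (25, then 250 µg/L), and -0.05 and -0.17 in the sertraline groups in that order. The other per2 probe set had -1.28 ± 0.34 and did not pass (0.175). By group it had -2.26 and -1.505 for fluoxetine, and -0.45 and -0.89 for sertraline. Its sertraline differences were thus larger in size than those of the first probe set.

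bhlhe41 (-1.26 ± 0.14, adjusted p = 0.00135) and ciarta (-1.06 ± 0.09, 0.000209), both repressors of the clock, had -2.41 and -2.20, and -2.07 and -1.62, at the fluoxetine concentrations, and -0.25 and -0.17, and -0.16 and -0.37, at those of sertraline. The cryptochrome gene cry2 (-0.85 ± 0.08, 0.000579) had 0.21 at 25 µg/L sertraline, and its call ended without the group at 25 µg/L fluoxetine (0.0563). The nuclear receptor gene rorcb rose by 0.66 ± 0.09 (0.00586), from 1.37 and 1.59 at the fluoxetine concentrations and -0.30 and -0.03 at those of sertraline. Its call ended without control replicate 3 (0.0501), the group at 25 µg/L fluoxetine (0.156) or the group at 250 µg/L fluoxetine (0.181). nfil3-6, the gene of a bZIP factor of the Nfil3 family, was lower in all 12 exposed arrays (8.65 to 10.03) than in control (10.38 to 10.43). nfil3-6 fell by 0.87 ± 0.10 (0.00135), with -1.59, -0.78, -0.57 and -0.56 by group. Its other probe set, dim at 3.89 in control, had -0.08 ± 0.05 and did not pass (0.841). The other probe set of cry2 fell as well (-0.73 ± 0.10, 0.00584). For these 7 genes the exposed groups differed among themselves (adjusted p 9.21e-07 to 0.00156).

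The genes of insulin and energy signalling had 3 falls of 47 and 0 rises in the mean, against 0.542% and 0.148% of all probe sets. The median of the list was 0.03, with 0.09, 0.12, -0.04 and -0.01 by group. At 25 µg/L fluoxetine 3 members rose and 4 fell, against 0.864% and 1.66% of all probe sets. At 250 µg/L fluoxetine 1 rose and 3 fell, against 0.458% and 0.697%. pik3r3a read 6.73, 6.63 and 6.32 in control and 4.69 to 5.88 in exposed arrays with a median of 5.34, without overlap. It fell by 1.29 ± 0.11, or 2.44-fold (adjusted p = 0.000209), with -1.80, -0.96, -1.46 and -0.92 by group, each ± 0.14. The first 3 passed (adjusted p = 1.33e-05, 0.00444 and 0.00194) and 250 µg/L sertraline did not (0.0652). The differences at 250 µg/L of the 2 drugs were close in size, and the adjustment was made within each comparison. ulk1b, which encodes a kinase that starts autophagy, read 10.23, 10.07 and 10.05 in control and 9.24 to 9.99 in exposed arrays, also without overlap, and fell by 0.55 ± 0.07 (adjusted p = 0.00213). Both calls held in all fits without 1 array and without 1 exposed group. ppargc1b, a coactivator of mitochondrial genes, fell by 0.65 ± 0.12 (0.0292), with -1.31, -0.92, -0.22 and -0.14 by group, and its call ended in 6 of the 15 fits (0.0511 to 0.217), each time without a control array (replicates 1, 2 and 3) or without fluoxetine 250 replicate 1 or sertraline 250 replicate 1 or 2. It also ended without the group at 25 µg/L fluoxetine (0.352). The other probe set of ppargc1b had -0.87 ± 0.22 and did not pass (0.138).

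Outside the lists, 5 further genes fell without overlap between exposed and control arrays and were among the 12 largest such falls. hsd17b12a, which encodes a reductase of fatty acid elongation, fell by 0.99 ± 0.10 (adjusted p = 0.000579), the forebrain transcription factor gene foxg1b by 1.00 ± 0.14 (0.00538), itm2cb, the gene of a membrane protein of the BRICHOS family, by 0.86 ± 0.10 (0.00127), the polyamine regulator gene oaz2b by 0.86 ± 0.13 (0.00857) and the inositol trisphosphate kinase gene itpkcb by 1.02 ± 0.19 (0.0352). Their falls were largest at 25 µg/L fluoxetine (-1.49 to -1.89) and spanned -0.17 to -0.78 at 250 µg/L sertraline. The call of oaz2b ended without control replicate 2 (0.0595) or 3 (0.0741), and that of itpkcb in 11 of 15 fits (0.0539 to 0.167), being kept without fluoxetine 25 replicate 1 or 3, fluoxetine 250 replicate 3 or sertraline 25 replicate 1. Without 1 group, oaz2b no longer passed without 25 µg/L fluoxetine (0.129), and itpkcb without any group (0.0513 to 0.0614) but 250 µg/L fluoxetine. The other probe set of oaz2b had -0.73 ± 0.19 and did not pass (0.159).

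The naming rule found 6 rises without overlap. nr0b2a read 4.07, 4.10 and 3.27 in control and 4.64 to 6.24 in exposed arrays with a median of 5.55. It rose by 1.68 ± 0.29 (adjusted p = 0.0214), with 1.80, 1.57, 1.11 and 2.25 by group. The call ended without control replicate 1 (0.069), 2 (0.0691) or 3 (0.172) and without the group at 250 µg/L sertraline (0.0817), and its other probe set had 0.71 and did not pass. The green cone opsin gene opn1mw2 read 5.80 to 6.47 in control and 6.64 to 8.18 in exposed arrays and rose by 1.08 ± 0.16 (0.00857), with 0.95, 1.81, 0.68 and 0.89 by group. Its call ended without control replicate 2 (0.072) and without the group at 250 µg/L fluoxetine (0.115). slc35f6, of the solute carrier families, rose by 0.60 ± 0.09 (0.00797), the orphan nuclear receptor gene nr2f6b by 0.57 ± 0.11 (0.0394), the mitochondrial carrier gene slc25a55a by 0.53 ± 0.08 (0.011) and rgmd, of the repulsive guidance molecule family, by 0.52 ± 0.10 (0.0333). These 4 calls ended in 2, 11, 2 and 8 of the 15 fits: slc35f6 without control replicate 2 (0.0531) or 3 (0.0638), slc25a55a without control replicate 1 (0.0891) or 3 (0.101), nr2f6b with adjusted p of 0.053 to 0.267 (kept without fluoxetine 25 replicate 3, fluoxetine 250 replicate 2 or 3, or sertraline 25 replicate 1) and rgmd with 0.0533 to 0.214 (ended without any 1 control array, fluoxetine 250 replicate 1, sertraline 25 replicate 2 or 3, or sertraline 250 replicate 2 or 3). Without the group at 25 µg/L fluoxetine slc35f6 (0.0563), nr2f6b (0.328) and rgmd (0.133) did not pass, and without 250 µg/L fluoxetine rgmd (0.122) did not. The other probe set of slc35f6 was dim (1.82 in control) and had -0.000929.

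Several of these genes are expressed in the retina. Of 43 photoreceptor and lens genes opn1mw2 rose, and cabp5b, a calcium-binding protein gene (-0.92 ± 0.11, adjusted p = 0.00196), guca1c, a guanylate cyclase activator gene (-0.70 ± 0.09, 0.00442), and the cone phosphodiesterase gene pde6c (-0.50 ± 0.08, 0.011) fell. The call of pde6c ended without control replicate 1 (0.0883), control replicate 2 (0.0787) or the group at 250 µg/L fluoxetine (0.124), and that of guca1c without the group at 25 µg/L fluoxetine (0.156). The mean of this list was 8.13 to 8.19 in control and 8.09 to 8.33 in exposed arrays.

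The 8 lists of cell type markers had 2 rises and 3 falls in all, opn1mw2 and the muscle ubiquitin ligase gene trim55b (0.58 ± 0.09, adjusted p = 0.0069) and the 3 retinal falls above. trim55b had 1.11, 1.00, 0.02 and 0.20 by group, and its call ended without the group at 25 µg/L fluoxetine (0.144) or 250 µg/L fluoxetine (0.123). The exocrine pancreas list had the highest median of the 21 lists, 1.07 over 18 genes, with 2.14, 1.14, 0.38 and 0.68 by group, yet 0 of its members passed (9 higher and 0 lower at an unadjusted p under 0.05). Its mean ranged from 4.22 to 5.53 in control arrays and from 4.81 to 7.76 in exposed arrays, and 5 of the 12 exposed arrays were above all control arrays. The elastase gene ela2l read 6.23 to 8.11 in control and 7.27 to 10.76 in exposed arrays (1.38 ± 0.52, adjusted p = 0.47). The hepatocyte and yolk list had a median of 0.40 over 44 genes with 0 that passed (5 higher and 0 lower unadjusted), the intestine list 0.17 over 17 with 0 (2 and 1), and the neuron and glia list -0.15 over 37 with 0 (1 and 6). For chia.1, a chitinase gene of the gut, the difference was 1.58 ± 0.39 (0.132), with 3.07 at 250 µg/L sertraline. The list mean of neurons and glia was 9.03 to 9.13 in control arrays and 8.76 to 9.09 in exposed arrays, with 9 of 12 below the control range. The part of these markers in the differences of the stress genes was not tested.

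Of 13 serotonin and monoamine genes 0 passed in limma, 0 at an unadjusted p under 0.05, and the serotonin synthesis gene tph2 had -0.22 ± 0.12 (adjusted p = 0.723). The mean of this list lay between 3.17 and 3.44 in all arrays, and tph2 read 4.45 to 5.34. Of 38 genes of xenobiotic metabolism 0 passed as well (1 higher and 1 lower unadjusted). The erythrocyte list (20 genes) and the keratinocyte and ionocyte list (47 genes) also had 0 that passed (3 and 0, and 0 and 1, higher and lower unadjusted). The mean of the erythrocyte list was above the control range in 10 of 12 exposed arrays and below it in 1. The mean of the keratinocyte and ionocyte list was 7.005 to 7.215 in control arrays. At 25 µg/L fluoxetine it spread more widely, from 6.077 to 7.434.

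The mean of the 4 groups drew on them unequally. Of the 107 probe sets that passed, 83 had their largest difference at 25 µg/L fluoxetine, and 82 differed among the exposed groups (411 of all probe sets, 2.65%). The median size among the 107 was 1.19 at 25 µg/L fluoxetine, 0.755 at 250 µg/L fluoxetine, 0.372 at 25 µg/L sertraline and 0.266 at 250 µg/L sertraline, against 0.122, 0.0786, 0.0686 and 0.0808 over all probe sets. Against control on its own, 392 probe sets passed at 25 µg/L fluoxetine (2.53%, with 1.66% lower), 179 at 250 µg/L fluoxetine (1.15%, with 0.697% lower), 10 at 25 µg/L sertraline (0.0645%, with 0.0581% lower) and 0 at 250 µg/L sertraline (983 at an unadjusted p under 0.05, 6.34%). The mean of the fluoxetine groups had 371 (2.39%), 133 higher and 238 lower (1.54%). The mean of the sertraline groups had 3 (0.0194%), all lower: fkbp5 (-1.70, adjusted p = 0.0434), pik3r3a (-1.19, 0.00378) and slc3a2b (-0.57, 0.0476).

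**Figure D4:**
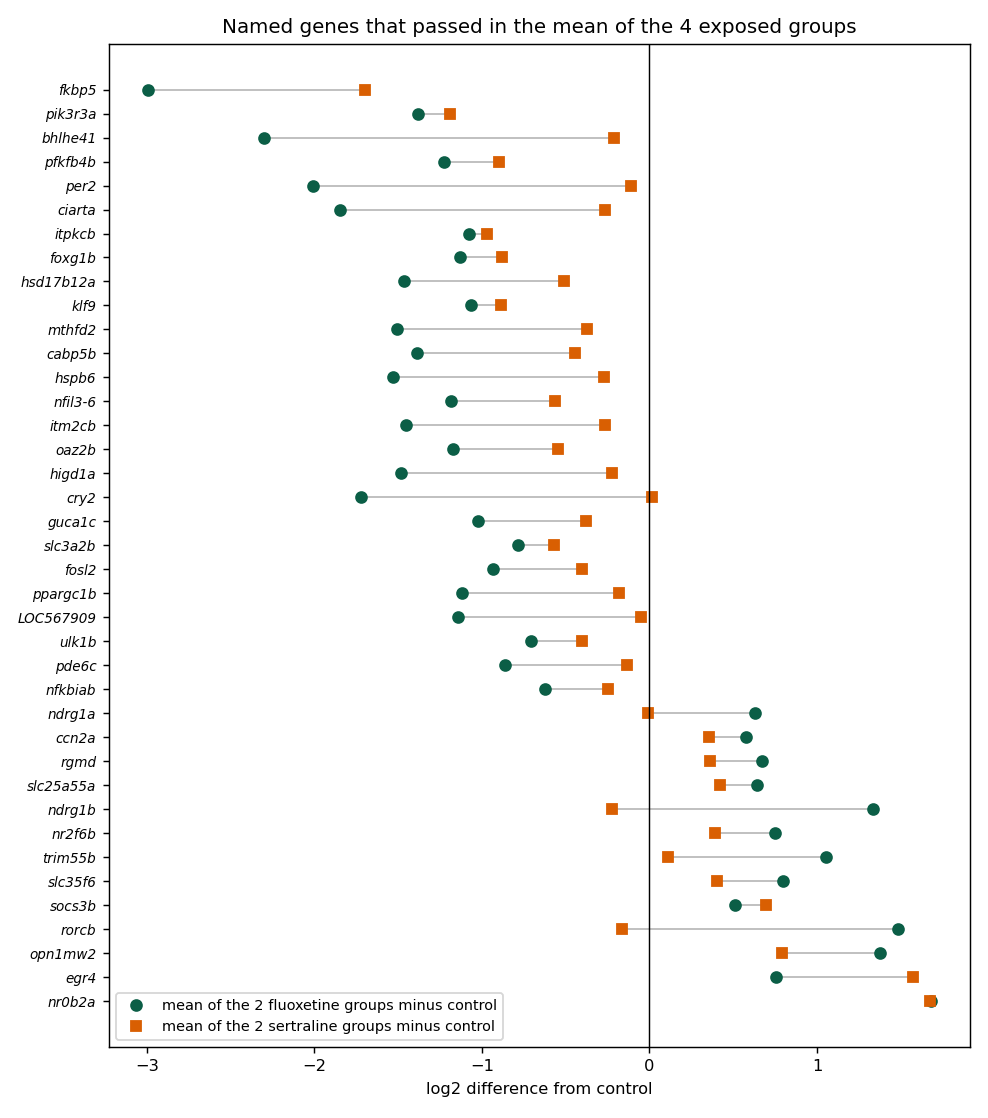
Log2 difference from control (horizontal axis) of the 39 named genes that passed in the mean of the 4 exposed groups; circles are the mean of the fluoxetine groups, squares the mean of the sertraline groups, and both share the 3 control arrays. Both points lie close together for pik3r3a, klf9, itpkcb and nr0b2a, and far apart for bhlhe41, per2, ciarta, cry2, ndrg1b and rorcb.

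Leaving out an exposed group changed the number of calls. With the other 3 groups in the mean, 40 probe sets passed without 25 µg/L fluoxetine (34 of them also among the 107), 56 without 250 µg/L fluoxetine (50), 118 without 25 µg/L sertraline (96) and 132 without 250 µg/L sertraline (99). The number depended on single arrays too: it was 40 without control replicate 2, 45 without control replicate 3, 62 without control replicate 1, 67 and 71 without sertraline 25 replicates 2 and 3, and 169 without fluoxetine 25 replicate 3. Of the 39 named genes that passed in the mean, 18 no longer did without 25 µg/L fluoxetine, 11 without 250 µg/L fluoxetine, 5 without 25 µg/L sertraline and 3 without 250 µg/L sertraline, and 19 did so in every fit without 1 array. With the 12 exposed arrays treated as 1 group, so that the differences between drugs and concentrations count as error, 0 probe sets passed (824 at an unadjusted p under 0.05).

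**Figure D5:**
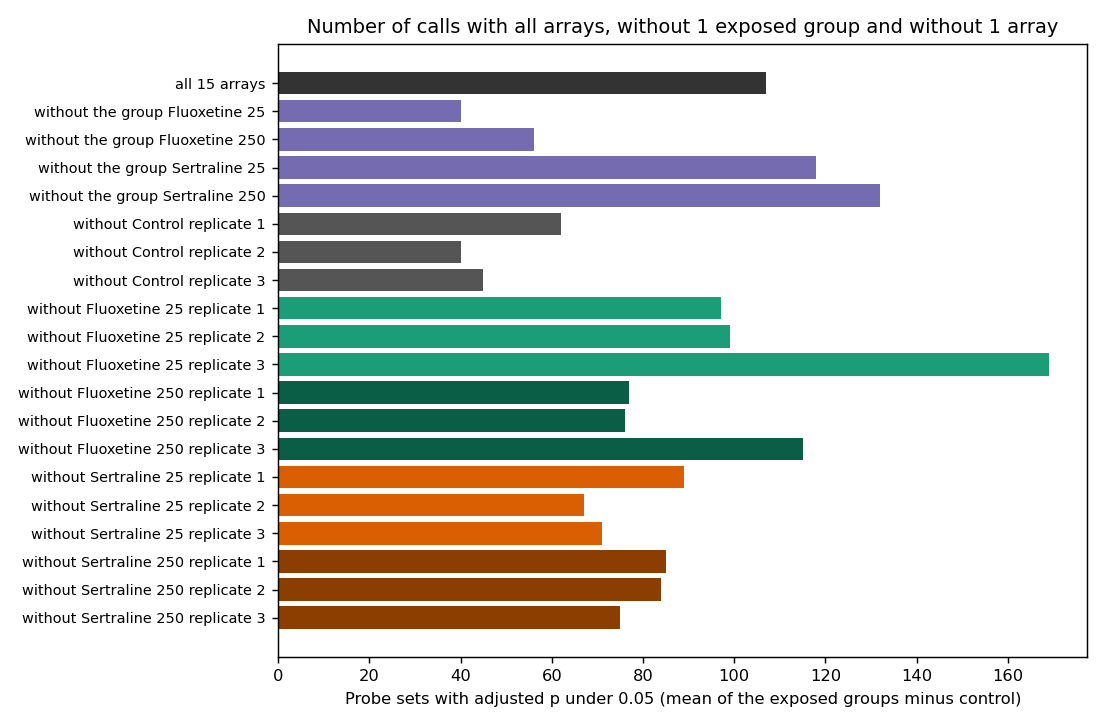
Number of probe sets with an adjusted p under 0.05 in the mean of the exposed groups minus control (horizontal axis) with all 15 arrays, without 1 exposed group and without 1 array. The count is 107 with all arrays, falls to 40 without fluoxetine at 25 µg/L or without control replicate 2, and is 169 without fluoxetine 25 replicate 3.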

How the data were processed

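Per the labels' protocols, 5 µg of total RNA of each beaker was hybridised to a 1-colour Affymetrix zebrafish array. The deposited values are on a log2 scale. GCRMA and Partek are named in the submitters' processing notes, and their versions and settings are not given in the sources used here. Of 15617 probe sets, 115 control probe sets were left out and 15502 tested, and 10795 of these carry 1 gene symbol. limma 3.58.1 in R 4.3.3 was fitted on all 15 arrays with 1 mean per group (10 residual degrees of freedom), and the contrast was the equal-weight mean of the 4 exposed groups minus control, with Benjamini-Hochberg adjustment over all probe sets and a threshold of 0.05. An F test on the 4 exposed group means gave the difference among exposed groups. Where several probe sets carry a symbol, the gene is represented by that with the highest mean. The exact permutation test enumerated 455 splits (scipy 1.17.1).

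The groups, the 21 gene lists and the tests were chosen with earlier results of these data known. Genes were named by a rule: among single-symbol probe sets that passed without overlap of exposed and control arrays, the 12 that fell most and up to 12 that rose most (6 rises met it), the 4 passing members with the smallest p in each list, or 2 where none passed, the 8 smallest p of the F test, and fkbp5 and nr3c1. cry1b and the stress genes described for their direction in all 4 groups were named after their values were seen.

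On simulated data with planted log2 changes of 0.5, 1 and 2, the fit of the mean contrast recovered 64.2%, 97% and 98.5% of them. Of the 183 calls made there, 10 were false. These rates describe the simulated data and are not the power for the real arrays. Recovery of changes that differ among the exposed groups, as 82 of the 107 calls did, was not tested. Nor was recovery under the lower correlation of the arrays at 25 µg/L fluoxetine. Same-numbered arrays deviated from their group means with a mean correlation of 0.00323 over 30 pairs (-0.323 to 0.397), and no label ties the numbers to a shared day or source, so arrays were not paired. Whether the labelled beakers came from separate spawnings is not stated in the labels, and p-values measure the spread between beakers.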

Additional observations from a re-analysis of the deposited data

Results flagged for a closer look

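For 36 of the 61 named probe sets, 31 of which passed in the mean, the 4 exposed groups differed from each other in the F test of limma, adjusted over all probe sets. There, the mean of the exposed groups stands for unequal groups. Among clock genes the adjusted p was 9.21e-07 for per2 and for cry2, 3.57e-06 for rorcb, 4.01e-06 for ciarta, 1.77e-05 for bhlhe41 and 0.00156 for nfil3-6. Among glucocorticoid-related genes it was 1.15e-05 for fkbp5, 0.00017 for nfkbiab, 0.00139 for klf9 and 0.0434 for nr3c1. In the hypoxia list it was 1.54e-06 for ndrg1b, 1.77e-05 for higd1a, 0.000221 for ndrg1a and 0.0129 for pfkfb4b. For other stress genes it was 0.000209 for hspb6, 0.00202 for fosl2, 0.00227 for mthfd2, 0.00809 for slc3a2b, 0.0324 for plk3 and 0.0343 for sesn3. Among energy-sensing genes it was 0.00206 for ppargc1b, 0.00749 for pik3r3a and 0.0229 for ulk1b. For markers of cell types it was 8.41e-05 for neurod1, 0.000187 for trim55b, 0.000816 for pde6c, 0.00105 for guca1c, 0.00132 for cabp5b, 0.0327 for tubb5 and 0.0341 for opn1mw2. The remaining values were 2.64e-07 for LOC567909, 2.77e-05 for itm2cb, 0.000178 for hsd17b12a, 0.00611 for oaz2b, 0.0207 for foxg1b and 0.0465 for nr2f6b. The largest difference from control was at 250 µg/L fluoxetine for cabp5b, pde6c, tubb5, neurod1, rorcb and opn1mw2, and at 25 µg/L fluoxetine for the others.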

How the results depend on the processing

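Counts that moved by over 1.5 times were as follows. Against 107 calls in the mean of the exposed groups, 0 were made with the exposed arrays as 1 group, 1 (fkbp5) against a fold threshold of 1.5, 48 without moderated variances, 40 to 169 without 1 array, 40 without the group at 25 µg/L fluoxetine, 56 without that at 250 µg/L, 371 in the mean of the fluoxetine groups and 3 in that of the sertraline groups. The 15 stress genes called became 0, 1 and 8 under the first 3 of these settings, 7 to 22 without 1 array, and 7 and 9 without 25 and 250 µg/L fluoxetine. The 83 stress genes of 1 sign became 4 where all exposed arrays had to lie beyond all control arrays, and the 0 called in each group stayed 0 throughout. That last count could not exceed the calls at 250 µg/L sertraline given below, which were 0 in the main fit. Its staying at 0 is therefore no sign of stability. At 25 µg/L fluoxetine the 392 calls became 225 to 1034 without 1 array and 1009 without the 2 arrays of largest GAPDH difference. At 250 µg/L fluoxetine the 179 became 276 with array weights, 92 without moderated variances and 74 to 247 without 1 array. At 25 µg/L sertraline the 10 became 4 with the GAPDH difference as a covariate, 25 with array weights, 1 without moderated variances, 4 after quantile normalization, 6 without the arrays of largest GAPDH difference, 16 without the dimmest 40% of probe sets and 1 to 13 without 1 array. At 250 µg/L sertraline the 0 became 28 with array weights, 6 with a trended and robust prior, 8 without the dimmest probe sets and 0 to 10 without 1 array. Among the exposed groups the 411 became 267 with the GAPDH covariate, 740 with array weights and 243 to 832 without 1 array. In the mean of the sertraline groups the sign turned for cry2 (0.0168), ndrg1a (-0.00807), ndrg1b (-0.226), neurod1 (-0.127) and rorcb (-0.166). The cause of these changes was not tested.

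With the replicate number as a block there were 87 calls in the mean, 3 at 25 µg/L sertraline, 2 at 250 µg/L sertraline and 324 among the exposed groups; 5 of 15 arrays correlated best with their own number.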
